A study of Homo sapiens with 20 samples.

Results

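Transcript levels of 10 genes of heme breakdown, ferritin storage, selective autophagy and the NRF2 response were followed across 5 human multiple myeloma models, each with vehicle or with the kinase inhibitor indirubin-3'-monoxime (I3MO). The genes were HMOX1, SLC48A1, FTL, FTH1, SQSTM1, GCLM, GCLC, TXNRD1, SRXN1 and NQO1, found by gene identifier among 60483 listed genes, and all 10 were among the 15687 genes that passed the filter on low values (FPKM of 1 or more in 2 or more libraries). They were chosen by their FPKM in ANBL6BR, where HMOX1, SQSTM1 and related genes were known to lie far apart in the 2 DMSO libraries, so the ANBL6BR values are given singly and without a test. The models were ANBL6, ARP1, RPMI8226 and U266, labelled wild type, and ANBL6BR, a bortezomib-resistant form of ANBL6; bortezomib is a proteasome inhibitor. Controls had DMSO, and I3MO was given at 10 µM to ARP1, RPMI8226 and U266 and at 5 µM to ANBL6 and its resistant form. Each of the 10 groups had 2 libraries of total RNA, 20 in all. The labels name bone marrow as the source, and the treatment time is not given in the sources used here. Nothing in the labels says that the libraries of a group came from separate cultures, so p-values measure the spread between these libraries, which may be technical.

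NRF2, encoded by NFE2L2, is a transcription factor that is held low by KEAP1 and, when freed by oxidants or electrophiles, binds antioxidant response elements together with small MAF proteins. Its targets include the genes of glutathione synthesis, of thioredoxin reduction, of quinone reduction and of ferritin, while HMOX1 is also held down by the heme-sensing repressor BACH1. SQSTM1 (p62) carries ubiquitinated cargo into autophagosomes and binds KEAP1. Plasma cells and myeloma cells secrete large amounts of protein, and their load on the proteasome and on autophagy is a known feature of this cancer. Indirubins inhibit several kinases and bind the aryl hydrocarbon receptor, of which NQO1 is a textbook target as well.

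Levels are given for every library in FPKM, the fragments of a gene per kilobase and per M fragments. Totals ran from 12.11 to 20.31 M fragments, and a member had between 11 fragments (SRXN1) and 138949 fragments (FTL) in a library. Log2 differences are differences of log2(FPKM + 1), ± SE, on which the change of a low gene comes out too small, and a gene was called at a limma adjusted p under 0.05 over all genes tested. As libraries of whole cultures were compared, fewer cells that express a gene and less of its RNA per cell cannot be told apart. The plasma cell list (SDC1, TNFRSF17, IRF4, PRDM1, CD38, MZB1 and SLAMF7) had all 7 genes at 1 FPKM or more in some library and summed to between 144 and 458 FPKM. Summed levels reached 7.71 FPKM for 6 macrophage markers, 6.12 for 6 erythroid markers, and 0.855 for 3 T cell markers. For 4 stromal and endothelial markers they reached 27.0, nearly all of it PECAM1 in ANBL6BR DMSO replicate 1. The 2 ANBL6 libraries with I3MO held 32668 and 28419 genes above 0 against 22138 and 22710 with DMSO, and the part of this in the ANBL6 values below was not tested.

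With I3MO, HMOX1 was higher in all I3MO libraries than in all DMSO libraries of ANBL6, ARP1, RPMI8226 and U266, by 3.74, 1.49, 2.66 and 5.3 times in mean FPKM. FTH1 was higher in ANBL6, RPMI8226 and U266 and not in ARP1, and SLC48A1 was higher in ANBL6 and RPMI8226. In the fit over all 20 libraries 1 of 10 members was called in ANBL6, where 7.97% of all genes were (4.1% higher and 3.87% lower). In ARP1 0 of 10 were called, against 37% of all genes (23.1% higher and 13.9% lower), and 2 of 10 had an unadjusted p under 0.05 (TXNRD1 and NQO1). In RPMI8226 3 of 10 were called, against 14.8% of all genes (6.19% higher and 8.62% lower), and in U266 2 of 10, against 26.2% (10.5% higher and 15.8% lower). Each of these calls was a rise.

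The spread behind these tests is pooled over all groups, and the ANBL6BR DMSO libraries, far apart in these genes, enter it. Without the 4 ANBL6BR libraries the differences were the same and the errors of 9 members smaller. The SE of HMOX1 was 0.22 in place of 0.65 and that of SQSTM1 0.10 in place of 0.64, while that of SLC48A1 was slightly larger (0.1004 in place of 0.0971). In this fit over 16 libraries limma called 3 members higher and 1 lower in ANBL6, against 10.2% of all genes (5.32% higher and 4.86% lower). It called 5 higher and 1 lower in ARP1, against 39.1% of all genes (24% higher and 15.1% lower). In RPMI8226 5 were higher, against 17.2% of all genes (7.33% higher and 9.89% lower), and in U266 3 were higher and 1 lower, against 28.5% (11.5% higher and 17% lower). The calls in ARP1 also depended on the scale of the libraries. When each library was scaled by its median ratio over genes above 0 in every library, a setting chosen after seeing the data, the 16-library counts were 3 higher and 1 lower in ANBL6, 0 higher and 1 lower in ARP1, 5 higher in RPMI8226 and 2 higher in U266. Of all 15687 genes that fit called 1158 in ANBL6, 6216 in ARP1, 2736 in RPMI8226 and 3965 in U266. That scaling moved the share of rises among all called genes of the 20-library fit from 51.4% to 37.3% in ANBL6 and from 62.5% to 40.8% in ARP1, and from 41.8% to 49.6% in RPMI8226 and from 40% to 45.7% in U266.

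**Figure D1:**
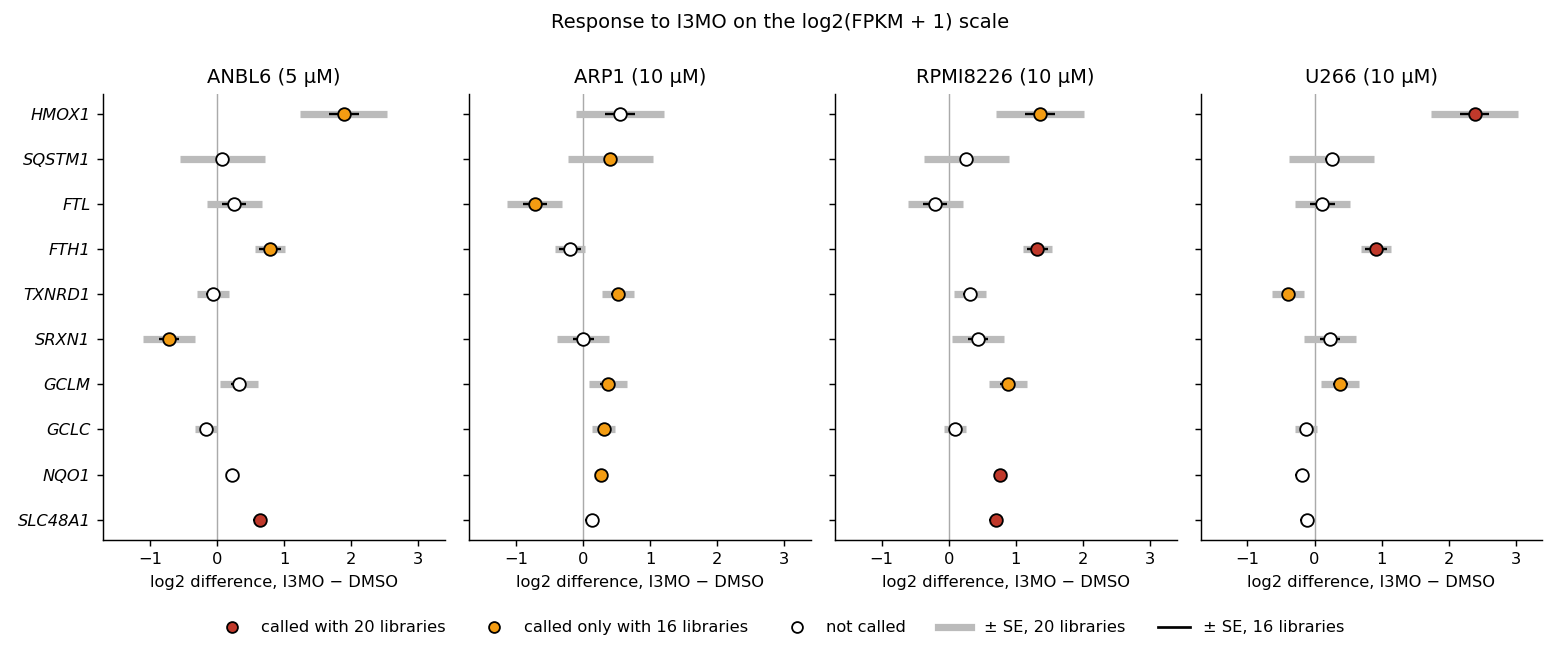
Log2 differences between I3MO and DMSO (x axis, log2(FPKM + 1) units) of the 10 genes (y axis) in 4 models, with the SE of the 20-library fit as grey bars and of the 16-library fit as black lines. Red points were called with 20 libraries, orange points with 16 libraries only and white points in neither; HMOX1 lies right of 0 in all 4 panels, and its grey bars are about as wide as those of SQSTM1.

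Over the 10 members the median log2 difference was 0.24 in ANBL6, 0.29 in ARP1, 0.57 in RPMI8226 and 0.17 in U266, beside medians of 0.01, 0.03, -0.01 and -0.02 over all genes tested. With the added scaling the members' medians were 0.19, 0.07, 0.65 and 0.21. The I3MO libraries lay wholly above the DMSO libraries in 5 members in ANBL6 (32.5% of all genes), 6 in ARP1 (38.8%), 8 in RPMI8226 (25.5%) and 6 in U266 (23.1%). They lay wholly below in 3 members in ANBL6 (25% of all genes), 2 in ARP1 (25.5%), 0 in RPMI8226 (33.4%) and 4 in U266 (31.7%).

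HMOX1 (ENSG00000100292.15, chromosome 22, 35380361 to 35394214 on hg38) encodes heme oxygenase, which opens the heme ring and yields biliverdin, carbon monoxide and iron. In ANBL6 it stood at 26.0 and 43.8 FPKM with DMSO and at 103 and 158 with I3MO. In ARP1 the libraries gave 21.1 and 22.6 FPKM with DMSO and 30.5 and 34.4 with I3MO. In RPMI8226 they gave 18.0 and 18.1 FPKM with DMSO and 47.6 and 48.4 with I3MO. The groups did not overlap in any of these models, and the ANBL6 libraries were the least alike. In U266 HMOX1 rose from 64.1 and 65.3 FPKM to 343 in both I3MO libraries, by 2.39 ± 0.65 (limma adjusted p = 0.0163), and by the same amount ± 0.22 with 16 libraries (limma adjusted p = 3.01e-05). Leaving out any 1 of the 4 U266 libraries from the 20-library fit ended that call (limma adjusted p from 0.057 to 0.0733) with the difference at 2.38 to 2.40. In ANBL6 the difference of 1.89 was called with 16 libraries (limma adjusted p = 0.00105) and not with 20 (0.0985). In RPMI8226 the difference of 1.36 was likewise called with 16 libraries only (limma adjusted p = 0.00215 against 0.212). The difference in ARP1, 0.55, passed in neither (limma adjusted p = 0.597 with 20 libraries and 0.0751 with 16), and was 0.27 after the added scaling (0.852 and 0.423).

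With DMSO, HMOX1 was ordered U266, ANBL6, ARP1, RPMI8226, at 64.7 ± 0.803, 34.9 ± 12.6, 21.8 ± 1.07 and 18.1 ± 0.0402 FPKM (SD, n = 2). The joint test of equal DMSO levels did not pass with 20 libraries (limma adjusted p = 0.0834), no neighbours in the order were told apart, and RPMI8226 stood below U266 (-1.78 ± 0.65, limma adjusted p = 0.0303). With 16 libraries the joint test passed (limma adjusted p = 0.000103), U266 stood above ANBL6 by 0.92 ± 0.22 (limma adjusted p = 0.00381) and ANBL6 above ARP1 by 0.61 ± 0.22 (limma adjusted p = 0.0349), while ARP1 and RPMI8226 were not told apart (0.26 ± 0.22, limma adjusted p = 0.376).

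SLC48A1 (ENSG00000211584.12, chromosome 12, 47753916 to 47782753) encodes HRG1, which carries heme out of lysosomes and endosomes into the cytosol. In ANBL6 it rose from 7.39 and 6.59 FPKM to 11.1 and 11.7, by 0.64 ± 0.10 (limma adjusted p = 0.00229). In RPMI8226 it rose from 10.3 and 9.67 FPKM to 17.5 and 16.3, by 0.70 ± 0.10 (limma adjusted p = 0.000396). The libraries overlapped in ARP1, at 1.94 and 2.36 FPKM with DMSO and 2.12 and 2.79 with I3MO, and the difference there, 0.13, was -0.07 after the added scaling. In U266 they gave 7.99 and 7.72 FPKM with DMSO and 7.40 and 6.94 with I3MO, lower without overlap and not called (-0.12 ± 0.10, limma adjusted p = 0.447, and -0.06 after the added scaling). With 20 libraries SLC48A1 had the smallest p of the members for a difference of DMSO levels, with RPMI8226 above U266 above ANBL6 above ARP1 (joint limma adjusted p = 9.95e-09), although U266 and ANBL6 as neighbours were not told apart (limma adjusted p = 0.189).

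**Figure D2:**
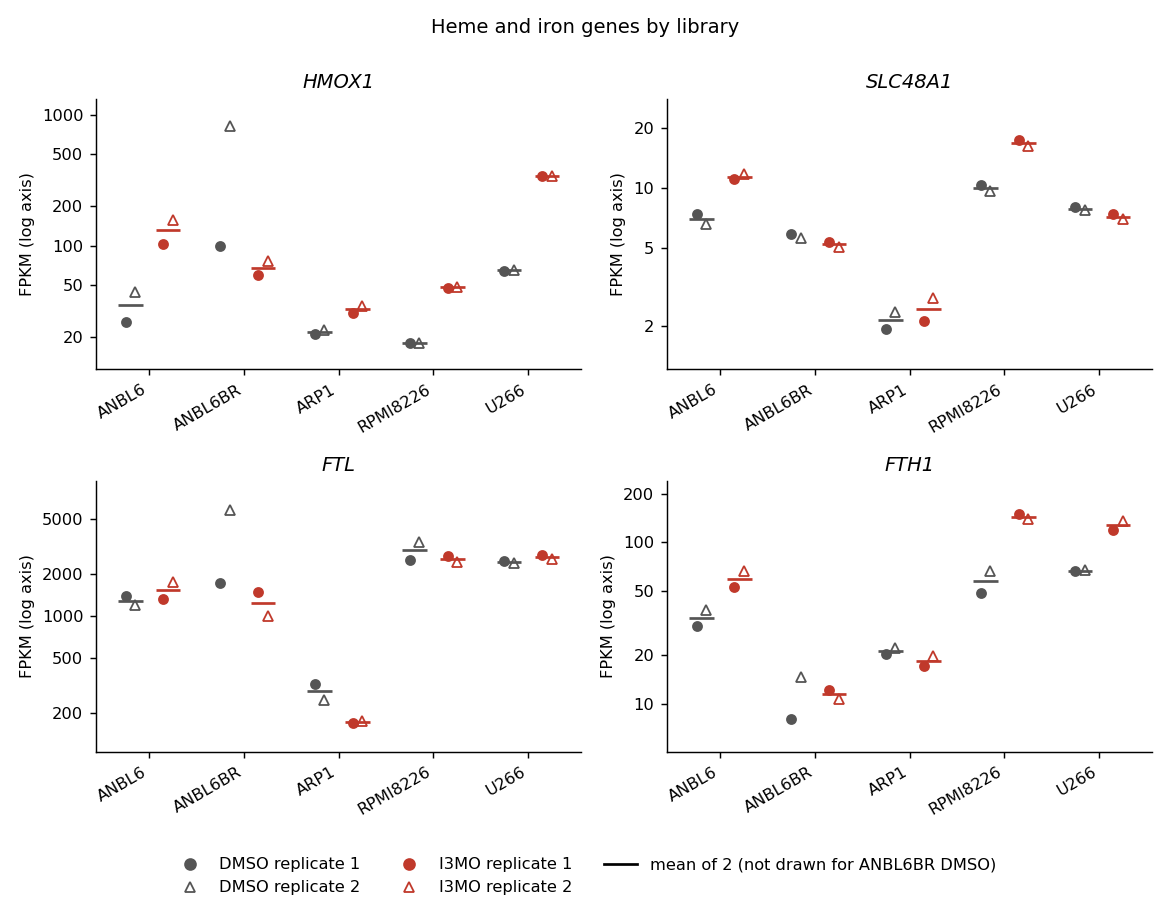
FPKM (y axis, log scale) of HMOX1, SLC48A1, FTL and FTH1 in each of the 20 libraries by model (x axis), with DMSO in grey, I3MO in red, circles for replicate 1, triangles for replicate 2 and bars at group means, which are left out for ANBL6BR DMSO. The I3MO points of HMOX1 lie above the DMSO points in ANBL6, ARP1, RPMI8226 and U266, from 30.5 and 34.4 FPKM in ARP1 to 343 in U266, and ANBL6BR DMSO replicate 2 is the highest point for HMOX1 (825 FPKM) and FTL (5882 FPKM).

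Ferritin, the iron store of the cell, is a shell of light chains (FTL) and of heavy chains (FTH1), the latter oxidising iron on its way in. Both messages carry an iron-responsive element in the 5′ UTR, a hairpin that iron regulatory proteins bind to hold back translation, so protein amounts may differ from the RNA levels measured here. The elements are shown because they are what both transcripts share outside the values, as 30 bases from GENCODE 29 transcripts on GRCh38, with the 6 bases of the loop motif CAGTGN in capitals. They were equal at 26 of 30 positions.
FTL (chr19:48965336-48965365, plus strand): tcttgcttcaaCAGTGTttggacggaacag
FTH1 (chr11:61967572-61967601, minus strand): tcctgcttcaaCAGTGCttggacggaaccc

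FTL (ENSG00000087086.12, chromosome 19, 48965301 to 48966878) had the highest FPKM of the 10 genes in every group. In ANBL6 it gave 1389 and 1198 FPKM with DMSO and 1334 and 1777 with I3MO, with overlap. In ARP1 it gave 322 and 249 FPKM with DMSO and 168 and 176 with I3MO, lower in both I3MO libraries. The ARP1 difference of -0.72 was not called with 20 libraries (± 0.41, limma adjusted p = 0.203), was called with 16 (± 0.18, limma adjusted p = 0.0107), and was -1.01 after the added scaling (limma adjusted p = 0.00356 with 16 libraries). RPMI8226 had 2559 and 3446 FPKM with DMSO and 2707 and 2466 with I3MO, and U266 had 2522 and 2409 with DMSO and 2748 and 2601 with I3MO. Neither difference was called (-0.20 and 0.12, limma adjusted p = 0.895 and 0.916). With DMSO the order was RPMI8226, U266, ANBL6, ARP1, and ARP1 stood below ANBL6 by 2.18 ± 0.41 (limma adjusted p = 0.000457). RPMI8226 and U266 were not told apart (limma adjusted p = 0.599), nor U266 and ANBL6 (limma adjusted p = 0.0594), a pair that was told apart with 16 libraries (0.000979).

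FTH1 (ENSG00000167996.14, chromosome 11, 61959718 to 61967660) moved with I3MO where FTL was not called. In RPMI8226 it rose from 48.7 and 66.3 FPKM to 149 and 139, by 1.32 ± 0.22 (limma adjusted p = 0.00162). In U266 it rose from 66.3 and 67.1 FPKM to 119 and 135, by 0.92 ± 0.22 (limma adjusted p = 0.00849), a call that was lost without U266 I3MO replicate 2 (limma adjusted p = 0.0513). In ANBL6 it stood at 30.2 and 37.9 FPKM with DMSO and 52.6 and 66.1 with I3MO, higher without overlap. The ANBL6 difference of 0.78 missed the threshold with 20 libraries (limma adjusted p = 0.0503) and passed with 16 (0.0153). ARP1 went the other way, with 20.2 and 22.1 FPKM with DMSO and 17.1 and 19.7 with I3MO (-0.19 ± 0.22, limma adjusted p = 0.589), and the difference was -0.47 after the added scaling (0.157, and 0.0809 with 16 libraries). With DMSO the order was U266, RPMI8226, ANBL6, ARP1, in which U266 and RPMI8226 were not told apart (limma adjusted p = 0.397) and the next neighbours were (0.0137 and 0.022).

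The FTH1 values carry a limit of their own. Of its exon bases 62.4% are shared with BEST1, a gene on the other strand that ran from 0.00534 to 1.63 FPKM, and how fragments in shared bases were counted is not given in the sources used here. FTH1 and FTL also have many processed pseudogenes, to and from which the authors' counting could move reads, so both are uncertain to that extent. The summed level of 25 listed FTH1 pseudogenes was 3.18 ± 0.362 FPKM with DMSO and 11.8 ± 1.89 with I3MO in ANBL6, 6.82 ± 0.475 and 9.69 ± 1.28 in ARP1, 10.4 ± 1.12 and 26.5 ± 8.02 in RPMI8226, and 16.9 ± 0.799 and 16.9 ± 2.02 in U266 (SD, n = 2). In ARP1 their mean was thus higher with I3MO where that of FTH1 was lower, and their part in the FTH1 differences was not tested. On merged exon length, which makes genes more comparable, the mean DMSO level was 533 FPKM for FTL and 96.6 for FTH1 in ARP1 and 5612 for FTL and 262 for FTH1 in RPMI8226.

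SQSTM1 (ENSG00000161011.18, chromosome 5, 179806398 to 179838078) was higher in both I3MO libraries than in both DMSO libraries of ARP1 (14.0 and 14.1 FPKM with DMSO, 18.3 and 19.5 with I3MO). The same held in RPMI8226 (33.3 and 33.0 FPKM with DMSO, 40.3 and 39.6 with I3MO) and in U266 (84.7 and 82.3 FPKM with DMSO, 101 and 98.9 with I3MO). In ANBL6 the libraries overlapped, at 23.0 and 26.3 FPKM with DMSO and 23.0 and 29.4 with I3MO. The differences were small, 0.41, 0.26 and 0.26 in the 3 models without overlap, and none was called with 20 libraries (limma adjusted p from 0.719 to 0.929, SE 0.64). With 16 libraries the SE was 0.10 and ARP1 alone passed (limma adjusted p = 0.00859), until the added scaling took its difference to 0.13 (limma adjusted p = 0.451). Between models the DMSO levels spanned more than the responses, in the order U266, RPMI8226, ANBL6, ARP1, and ARP1 minus U266 gave -2.49 ± 0.64 (limma adjusted p = 0.00437). Neighbours in this order were not told apart with 20 libraries (limma adjusted p = 0.0923, 0.647 and 0.331) and each was told apart with 16 (9.83e-07, 0.00425 and 6.12e-05). Of the SQSTM1 exon bases 22% are shared with MGAT4B and MRNIP on the other strand.

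Glutamate-cysteine ligase makes the first bond of glutathione, with GCLC as the catalytic and GCLM as the modifier subunit. GCLM (ENSG00000023909.8, chromosome 1, 93885205 to 93909456) gave 3.80 and 4.15 FPKM with DMSO and 5.51 and 4.96 with I3MO in ANBL6. It gave 3.30 and 2.82 with DMSO and 4.51 and 3.98 with I3MO in ARP1. In RPMI8226 it gave 2.68 and 2.84 FPKM with DMSO and 6.02 and 5.85 with I3MO, and in U266 6.49 and 6.19 with DMSO and 7.48 and 9.84 with I3MO. Like HMOX1, GCLM did not overlap between treatments in any of these 4 models, with I3MO above DMSO in each. In RPMI8226 the difference of 0.88 ± 0.28 missed the threshold with 20 libraries (limma adjusted p = 0.0562), passed with a pseudocount of 0.25 (0.0444) and after the added scaling (0.0423), and passed with 16 libraries (0.000483). The differences of 0.37 in ARP1 and 0.39 in U266 passed with 16 libraries (limma adjusted p = 0.0238 and 0.0259), and no longer did after the added scaling, where the ARP1 difference was 0.14 (limma adjusted p = 0.528) and the U266 difference 0.44 (0.058). In ANBL6 the difference of 0.33 passed in neither fit (limma adjusted p = 0.572 and 0.0949). With DMSO, U266 stood above RPMI8226 by 0.96 ± 0.28 and above ARP1 by 0.86 ± 0.28 (limma adjusted p = 0.0099 and 0.0196), and ANBL6, ARP1 and RPMI8226 were not told apart (limma adjusted p from 0.264 to 0.817). With 16 libraries ANBL6 was told apart from ARP1 (limma adjusted p = 0.0404) and from RPMI8226 (0.0103).

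GCLC (ENSG00000001084.9, chromosome 6, 53497341 to 53616970) did not follow GCLM in ANBL6, RPMI8226 or U266, and moved by a similar amount in ARP1. In ANBL6 it gave 5.51 and 5.70 FPKM with DMSO and 4.86 and 4.87 with I3MO, lower without overlap and not called (-0.17 ± 0.17, limma adjusted p = 0.628). In ARP1 it gave 1.28 and 1.37 FPKM with DMSO and 1.90 and 1.86 with I3MO, a difference of 0.31 that passed with 16 libraries (limma adjusted p = 0.0149) and not with 20 (0.178), and that was 0.13 after the added scaling. RPMI8226 gave 2.44 and 2.01 FPKM with DMSO and 2.33 and 2.53 with I3MO, and U266 gave 2.45 and 2.46 with DMSO and 1.92 and 2.40 with I3MO, neither called (limma adjusted p = 0.867 and 0.654). With DMSO, ANBL6 stood above the next model, U266, by 0.94 ± 0.17 (limma adjusted p = 0.000257), and ARP1 below RPMI8226 by 0.47 ± 0.17 (limma adjusted p = 0.0317), while U266 and RPMI8226 were not told apart (limma adjusted p = 0.628).

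The core of the antioxidant response element, TGACNNNGC or GCNNNGTCA on the other strand, was searched on both strands in RefSeq promoter windows on GRCh38.p14, from 250 bases before to 50 bases after a start. The tables held 11 windows for 8 of the 10 genes, none matched for HMOX1 and FTH1, and 13.3% of 35116 windows held the core. Among the 8 genes GCLM and TXNRD1 held it. The matches are shown, with the 9 matched bases in capitals, because GCLM is the member whose levels correlated best with those of HMOX1. A further match of TXNRD1 began 8 bases before its first start. A match describes letters, not binding, and a window without one says nothing of the factor.
GCLM, 34 bases before the start (chr1:93909436-93909484, minus strand): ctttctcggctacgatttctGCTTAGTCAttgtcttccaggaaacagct
TXNRD1, 99 bases before the first start (chr12:104215660-104215708, plus strand): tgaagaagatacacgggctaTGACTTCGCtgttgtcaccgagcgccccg
TXNRD1, 102 bases before the other start (chr12:104286910-104286958, plus strand): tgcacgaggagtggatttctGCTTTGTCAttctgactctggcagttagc

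TXNRD1 (ENSG00000198431.14, chromosome 12, 104215779 to 104350305) encodes the cytosolic thioredoxin reductase, a selenoprotein that spends NADPH to reduce thioredoxin. In ARP1 it gave 6.02 and 5.71 FPKM with DMSO and 8.96 and 8.80 with I3MO, and in RPMI8226 5.43 and 5.04 with DMSO and 6.70 and 6.80 with I3MO. In U266 it was lower with I3MO, at 3.37 and 4.66 FPKM against 5.56 and 5.46, and in ANBL6 it was slightly lower, at 7.03 and 6.92 against 7.08 and 7.63. None of the 4 differences was called with 20 libraries (limma adjusted p from 0.109 to 0.955). With 16 libraries the 0.53 in ARP1 and the -0.39 in U266 passed (limma adjusted p = 0.0024 and 0.0147), and both calls were lost with the added scaling, where the ARP1 difference was 0.27 (limma adjusted p = 0.156) and the U266 difference -0.33 (0.114). DMSO levels were not told apart with 20 libraries (joint limma adjusted p = 0.365), and with 16 they were (0.0102), with ANBL6 above the other models by 0.28 to 0.42.

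SRXN1 (ENSG00000271303.1, chromosome 20, 646615 to 653370) encodes sulfiredoxin, which restores overoxidised peroxiredoxins. It was low outside the ANBL6 pair of models: ARP1 gave 0.287 and 0.267 FPKM with DMSO and 0.272 and 0.290 with I3MO, from 11 to 13 fragments a library. RPMI8226 gave 0.291 and 0.728 FPKM with DMSO and 1.34 and 0.749 with I3MO, and U266 gave 0.377 and 0.408 with DMSO and 0.655 and 0.611 with I3MO. In ANBL6 it was lower with I3MO, at 1.95 and 1.62 FPKM against 3.28 and 3.89, which passed with 16 libraries (-0.72 ± 0.15, limma adjusted p = 0.0182) and not with 20 (± 0.39, limma adjusted p = 0.306). With DMSO, ANBL6 stood above RPMI8226 by 1.62 ± 0.39 (limma adjusted p = 0.00328), and the other 3 models were not told apart (limma adjusted p from 0.693 to 0.853). Of the SRXN1 exon bases 85% are shared with AL121758.1, which did not exceed 0.169 FPKM, so SRXN1 reads are uncertain too.

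NQO1 (ENSG00000181019.11, chromosome 16, 69706996 to 69726951), a reductase that turns quinones into hydroquinones, rose in RPMI8226 from 9.16 and 9.13 FPKM to 17.3 and 15.4, by 0.77 ± 0.10 (limma adjusted p = 0.000227). In ARP1 it gave 7.78 and 7.87 FPKM with DMSO and 9.26 and 9.99 with I3MO, just outside the threshold with 20 libraries (0.27 ± 0.10, limma adjusted p = 0.0518) and inside it with 16 (0.041). The ARP1 difference was 0.01 after the added scaling. In ANBL6 it gave 6.17 and 6.85 FPKM with DMSO and 7.03 and 8.57 with I3MO (limma adjusted p = 0.198), and in U266 5.56 and 5.19 with DMSO and 4.42 and 4.73 with I3MO (limma adjusted p = 0.187). With DMSO the order was RPMI8226, ARP1, ANBL6, U266, with no neighbours told apart with 20 libraries (limma adjusted p = 0.113, 0.0572 and 0.0502) and the latter pairs told apart with 16 (0.0455 and 0.0402). RPMI8226 stood above U266 by 0.67 ± 0.10 (limma adjusted p = 6.33e-05). 

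Over all members the joint test of equal DMSO levels passed for 8 of 10 with 20 libraries, against 86.5% of all genes, and for 10 of 10 with 16 libraries, against 86.6%. By pairs with 20 libraries, ANBL6 and ARP1 were told apart in 5 members (60.4% of all genes), ANBL6 and RPMI8226 in 6 (53.8%), and ANBL6 and U266 in 4 (68%). ARP1 and RPMI8226 were told apart in 4 members (50.8% of all genes), ARP1 and U266 in 7 (59.1%), and RPMI8226 and U266 in 4 (61.6%). These counts lie on both sides of the shares of all genes.

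**Figure D3:**
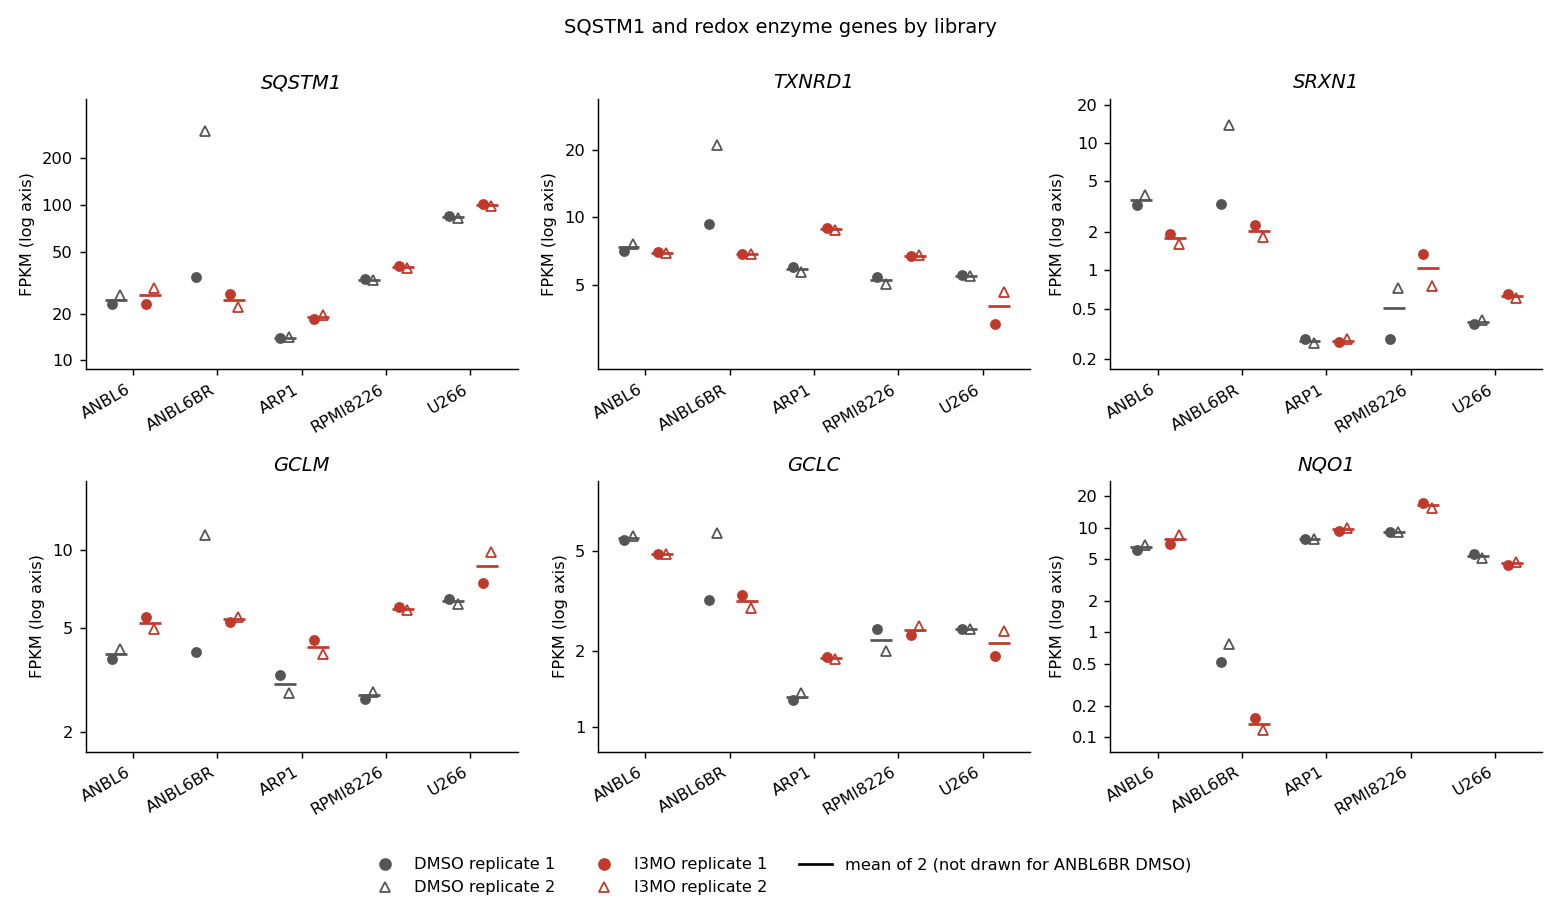
FPKM (y axis, log scale) of SQSTM1, TXNRD1, SRXN1, GCLM, GCLC and NQO1 in each of the 20 libraries by model (x axis), drawn as in the plot of heme and iron genes. GCLM with I3MO lies above DMSO in ANBL6, ARP1, RPMI8226 and U266, NQO1 is below 1 FPKM in ANBL6BR only, and ANBL6BR DMSO replicate 2 is the highest point for SQSTM1 (301 FPKM), TXNRD1 (20.9), SRXN1 (13.8), GCLM (11.5) and GCLC (5.87).

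ARP1, RPMI8226 and U266 shared the dose of 10 µM, so their responses were compared with each other. The responses of 3 of 10 members differed among these models with 20 libraries, against 38.9% of all genes: FTH1 (limma F test, adjusted p = 0.00668), NQO1 (0.000932) and SLC48A1 (0.00197). FTH1 set ARP1 apart from RPMI8226 (-1.52 ± 0.31, limma adjusted p = 0.00518) and from U266 (-1.11 ± 0.31, limma adjusted p = 0.019), whereas RPMI8226 and U266 were not told apart (0.41 ± 0.31, limma adjusted p = 0.484). The NQO1 response was larger in RPMI8226 than in U266 by 0.96 ± 0.14 (limma adjusted p = 0.000631) and larger than in ARP1 by 0.50 ± 0.14 (limma adjusted p = 0.0201). The SLC48A1 response was larger in RPMI8226 than in U266 by 0.82 ± 0.14 (limma adjusted p = 0.00168) and than in ARP1 by 0.57 ± 0.14 (limma adjusted p = 0.0105), and ARP1 and U266 were not told apart (0.25 ± 0.14, limma adjusted p = 0.195). By pairs, 3 members differed between ARP1 and RPMI8226 (27% of all genes), 2 between ARP1 and U266 (30.6%) and 2 between RPMI8226 and U266 (13.6%).

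With 16 libraries 7 of 10 members differed in response among the 3 models, against 41.7% of all genes, the added ones being HMOX1, TXNRD1, GCLM and GCLC (limma F test, adjusted p = 0.0042, 0.00197, 0.0365 and 0.0353). By pairs, 4 members differed between ARP1 and RPMI8226 (29.4% of all genes), 6 between ARP1 and U266 (33.1%) and 3 between RPMI8226 and U266 (16%). The HMOX1 response was larger in U266 than in ARP1 by 1.84 ± 0.31 with 16 libraries (limma adjusted p = 0.00211), and by the same difference ± 0.92 with 20 (limma adjusted p = 0.152). RPMI8226 lay between them and was told apart from neither with 16 libraries (limma adjusted p = 0.0785 from ARP1 and 0.0519 from U266). The TXNRD1 response was larger in ARP1 than in U266 by 0.91 ± 0.14 with 16 libraries (limma adjusted p = 0.00125). SQSTM1 and SRXN1 did not pass with 20 or with 16 libraries (limma F test, adjusted p = 1 and 0.591 for SQSTM1, 0.815 and 0.278 for SRXN1), nor did FTL (0.485 and 0.0593).

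In ANBL6BR the 2 DMSO libraries were far apart in these genes, which is why the genes were chosen, and the values are a description. HMOX1 stood at 99.0 FPKM in DMSO replicate 1 and at 825 in replicate 2, and at 59.7 and 76.0 in the I3MO libraries. SQSTM1 stood at 34.2 and 301 FPKM with DMSO and at 26.7 and 22.2 with I3MO. Replicate 2 exceeded replicate 1 by 8.33 times for HMOX1 and 8.80 times for SQSTM1, the third and second largest log2 differences among the 15687 genes tested. FTL stood at 1743 and 5882 FPKM with DMSO and 1501 and 1000 with I3MO, SRXN1 at 3.30 and 13.8 with DMSO and 2.26 and 1.82 with I3MO. GCLM stood at 4.04 and 11.5 FPKM with DMSO and 5.30 and 5.54 with I3MO, TXNRD1 at 9.31 and 20.9 with DMSO and 6.89 and 6.85 with I3MO.

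The other 4 members were closer between the ANBL6BR DMSO libraries. GCLC gave 3.20 and 5.87 FPKM, FTH1 8.08 and 14.7, NQO1 0.524 and 0.778, and SLC48A1 5.82 and 5.59, the last being the member that replicate 2 did not exceed. At least 2-fold on the log2(FPKM + 1) scale were 6 of 10 members, where 1.84% of all genes were, and replicate 2 was the highest of the 4 ANBL6BR libraries in 9 of 10, against 25.3% of all genes. The median log2 difference between the replicates was 1.20 over the members and 0 over all genes tested. As the genes were chosen with this split known, these counts, the median and the ranks of HMOX1 and SQSTM1 follow largely from the choice. In the other models the largest gap of a member between libraries of a group was 0.73, for DMSO in ANBL6. The plasma cell list summed to 458 FPKM in DMSO replicate 1, 174 in replicate 2, and 370 and 360 with I3MO, so it was lowest where these genes were highest, and its part in the difference was not tested. Macrophage markers summed to at most 0.0927 FPKM in the ANBL6BR libraries, and the stromal and endothelial list summed to 27.0 and 9.92 FPKM in the DMSO libraries.

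The direction of I3MO against DMSO in ANBL6BR was read against each DMSO library. Against replicate 1 the mean of the I3MO libraries was lower in 8 of 10 members, with FTH1 and GCLM higher, and the median log2 difference was -0.41. Against replicate 2 it was lower in all 10, with a median of -1.22. As the genes were chosen with the high values of replicate 2 known, that count follows largely from the choice. Over all genes tested both medians were 0, and the share of all genes that were lower is not given here. HMOX1 with I3MO was 0.685 times its level in replicate 1, and replicate 2 was 12.2 times the I3MO mean, so both comparisons put I3MO below DMSO, opposite in sign to the other 4 models. That contrast between models was not tested. GCLM with I3MO was above DMSO replicate 1 and below replicate 2, and its sign depends on which DMSO library is used, as does that of FTH1.

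**Figure D4:**
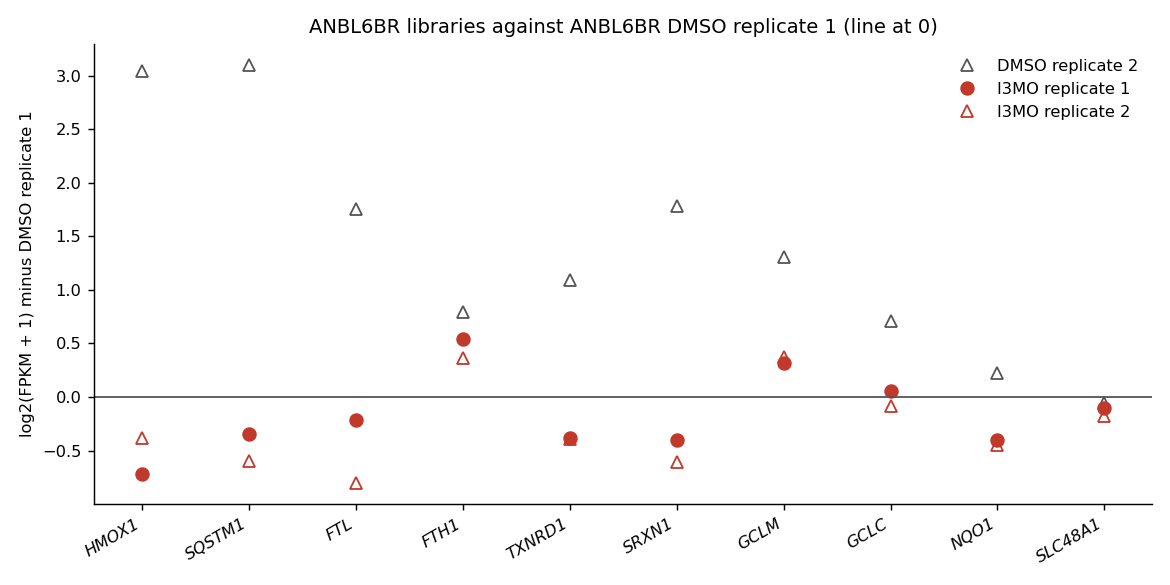
Log2(FPKM + 1) of each ANBL6BR library minus that of ANBL6BR DMSO replicate 1 (y axis) for the 10 genes (x axis), with DMSO replicate 2 as grey triangles and the I3MO libraries as red circles and triangles. DMSO replicate 2 lies at 3.05 for HMOX1, 3.10 for SQSTM1 and -0.05 for SLC48A1, and the I3MO points lie below 0 for HMOX1, SQSTM1, FTL, TXNRD1, SRXN1, NQO1 and SLC48A1.

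NQO1, FTH1 and SLC48A1 were lower in every ANBL6BR library than in every ANBL6 library. The share of all genes that separate these models in this way is not given here. NQO1 lay between 0.116 and 0.778 FPKM in the 4 ANBL6BR libraries, from 18 to 109 fragments, and between 6.17 and 8.57 in ANBL6. FTH1 lay between 8.08 and 14.7 FPKM in ANBL6BR and between 30.2 and 66.1 in ANBL6, with no test for the reason given. SLC48A1 in ANBL6BR, from 5.04 to 5.82 FPKM, lay below ANBL6 with DMSO (6.59 and 7.39) and with I3MO (11.1 and 11.7).

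Other genes of these pathways were counted in 6 lists that leave out the 10 members, beside the shares and medians of all genes given above. Up to 3 genes per list were named by the smallest p of a joint test of the 4 responses. With the added scaling, the 20-library fit called 1013 of all 15687 genes in ANBL6 and 6114 in ARP1. Of the factors that act on NRF2 targets and their regulators, all 7 were tested, with median log2 differences of -0.09, 0.35, 0.11 and 0.36 in ANBL6, ARP1, RPMI8226 and U266. After the added scaling the ARP1 medians of the lists were lower, at 0.08 for this list, -0.27 for glutathione and NADPH supply, -0.13 for other NRF2 targets, -0.35 for heme, 0.03 for iron and 0.13 for autophagy receptors. In ANBL6 limma called 0 with 20 libraries, 2 at an unadjusted p under 0.05, and 1 with 16, in ARP1 3 rose and 2 fell (2 and 2 after the added scaling), in RPMI8226 2 rose, and in U266 2 rose and 1 fell. NFE2L2, encoding NRF2, rose in ARP1 from 1.28 ± 0.334 to 4.14 ± 0.802 FPKM (SD, n = 2; 1.17 ± 0.13, limma adjusted p = 3.35e-05) and in U266 by 0.38 ± 0.13 (limma adjusted p = 0.0453, and 0.0588 with 16 libraries). NFE2L1, encoding the related NRF1, which drives proteasome genes, rose in U266 from 24.0 ± 0.00176 to 39.2 ± 0.486 FPKM (0.68 ± 0.10, limma adjusted p = 0.000345) and in RPMI8226 by 0.63 ± 0.10 (limma adjusted p = 0.00124). Its rise in ARP1 (0.40 ± 0.10, limma adjusted p = 0.00884) was lost with the added scaling (0.423). MAFF, a small MAF partner, fell in ARP1 and U266, by 0.95 ± 0.18 and 0.60 ± 0.18 (limma adjusted p = 0.00157 and 0.0291).

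Of 13 genes of glutathione, thioredoxin and NADPH supply, all tested, 2 rose in ANBL6, 2 rose and 3 fell in ARP1, 1 rose in RPMI8226 and 3 rose and 1 fell in U266. List medians were 0.38, 0.01, 0.09 and 0.06. With 16 libraries 6 rose in ANBL6, where 5.32% of all genes were called higher in that fit. In ARP1 2 rose and 4 fell with 16 libraries, in RPMI8226 3 rose, and in U266 3 rose and 1 fell. After the added scaling of 20 libraries limma called 0 in ANBL6, where 7 had an unadjusted p under 0.05 before it, and 2 rose and 6 fell in ARP1. SLC7A11, which imports the cystine for glutathione, rose by 2.90 ± 0.37 in ARP1 (limma adjusted p = 0.000111), where 0 of the 10 members were called, and by 1.52 ± 0.37 in U266 (limma adjusted p = 0.00929). In U266 its mean went from 2.38 ± 0.558 to 9.82 ± 7.07 FPKM (SD, n = 2), so the I3MO libraries there were far apart. IDH1, a source of cytosolic NADPH, rose in U266 from 5.25 ± 0.188 to 13.6 ± 0.698 FPKM (1.22 ± 0.19, limma adjusted p = 0.000395) and in ARP1 by 0.99 ± 0.19 (limma adjusted p = 0.00137). PGD of the pentose phosphate pathway rose in RPMI8226 from 63.7 ± 3.25 to 94.1 ± 2.34 FPKM (0.56 ± 0.09, limma adjusted p = 0.00177) and in U266 by 0.44 ± 0.09 (limma adjusted p = 0.00392).

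Of 13 other NRF2 targets and detoxication genes 8 were tested, with medians of 0.17, -0.01, 0.28 and -0.06 in the same order of models. In ANBL6 limma called 0 with 20 libraries, 2 at an unadjusted p under 0.05, and 1 with 16. In ARP1 1 rose and 1 fell (1 and 3 after the added scaling), in RPMI8226 2 rose, and in U266 1 rose and 2 fell. UGDH, which makes UDP-glucuronate, rose in ARP1, RPMI8226 and U266 by 0.61, 0.47 and 0.37 (limma adjusted p = 0.00152, 0.0169 and 0.0318). AKR1C2, an aldo-keto reductase that is close in sequence to its paralogs and therefore uncertain, rose in RPMI8226 from 0.419 ± 0.0279 to 1.41 ± 0.0652 FPKM (limma adjusted p = 1.11e-05) and was below 0.1 FPKM on average in the ANBL6, ARP1 and U266 groups. Groups so near 0 hardly vary and enter the pooled spread, so the p of AKR1C2 may be too small. CBR1, a carbonyl reductase, fell in ARP1 by 0.48 ± 0.11 (limma adjusted p = 0.00549).

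All 12 genes of heme synthesis, export and breakdown were tested, with medians of 0.09, -0.14, 0.19 and -0.05, and 2 rose in ANBL6, 2 rose and 5 fell in ARP1 (1 and 6 after the added scaling), 1 rose in RPMI8226, and 1 rose and 2 fell in U266. UROD, an enzyme of heme synthesis, rose by 0.44 in ANBL6, 0.44 in ARP1 and 0.35 in U266 (limma adjusted p = 0.0112, 0.0022 and 0.0115), the ARP1 rise being lost with the added scaling (0.131). PPOX, near the end of the pathway, fell in U266 by 0.68 ± 0.11 (limma adjusted p = 0.000663). Of 11 genes of iron uptake, storage and export 10 were tested, with medians of 0.07, 0.20, -0.04 and -0.03. In ARP1 5 rose and 1 fell (5 and 3 after the added scaling), in ANBL6 1 rose (0 with 16 libraries), and in RPMI8226 and U266 limma called 0 with 20 or 16 libraries and 0 at an unadjusted p under 0.05. In ARP1 TFRC, the transferrin receptor, rose from 10.3 ± 4.28 to 37.2 ± 7.98 FPKM (1.80 ± 0.32, limma adjusted p = 0.000943). NCOA4, which brings ferritin to autophagosomes, rose there from 6.14 ± 2.45 to 13.2 ± 0.668 (1.03 ± 0.17, limma adjusted p = 0.000467). SLC40A1, the iron exporter ferroportin, rose there from 0.508 ± 0.205 to 1.96 ± 0.0812 (0.98 ± 0.09, limma adjusted p = 7.61e-06). In ANBL6, RPMI8226 and U266 its group means did not exceed 0.0776 FPKM. Groups so near 0 hardly vary and enter the pooled spread, so its SE and p may be too small.

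Of 10 autophagy receptors and ATG8 proteins 9 were tested, with medians of 0.11, 0.32, -0.10 and 0.35, and 1 fell in ANBL6, 5 rose in ARP1 (3 after the added scaling), 1 rose and 1 fell in RPMI8226, and 4 rose and 1 fell in U266. NBR1, a receptor related to SQSTM1, fell in ANBL6, RPMI8226 and U266 by 0.64, 0.75 and 0.54 (limma adjusted p = 0.00186, 0.000175 and 0.000915). TOLLIP rose in U266 from 7.13 ± 0.0408 to 14.2 ± 1.07 FPKM (0.90 ± 0.09, limma adjusted p = 1.04e-05) and in RPMI8226 by 0.60 ± 0.09 (limma adjusted p = 0.000538). OPTN, optineurin, rose in ARP1 and U266 by 0.86 and 0.59 (limma adjusted p = 0.000536 and 0.00791). Median log2 differences between the ANBL6BR DMSO libraries are given as a description. They were 0.38 for glutathione and NADPH supply, 0.37 for other NRF2 targets and 0.30 for the NRF2 factors. For autophagy receptors the median was 0.22, for iron -0.05 and for heme genes -0.16. The members were chosen with this split known, so their larger median follows largely from the choice and is no contrast with the lists.

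Genes whose levels correlated best with those of HMOX1 were named by the highest Pearson r of log2(FPKM + 1), as a description over libraries that share models and treatments. Over 20 libraries GCLM came first (r = 0.88), before GPATCH3 (0.86), TRPV3 (0.85), ENSG00000255224 (0.84) and ACOT13 (0.84). These libraries include ANBL6BR DMSO replicate 2, whose high values were known when the members were chosen, so the first place of GCLM is not independent of the choice. Over the 16 libraries without ANBL6BR they included TAF12 (0.96), SIRT4 (0.93), DDIT3 (0.93) and TLE6 (0.92), with GCLM at 0.87. Among the other members SQSTM1 stood at 0.77 over 20 libraries and 0.68 over 16, and FTH1 at 0.12 and 0.61. NQO1 stood at -0.44 and -0.47, and TXNRD1 at 0.27 and -0.44.

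**Figure D5:**
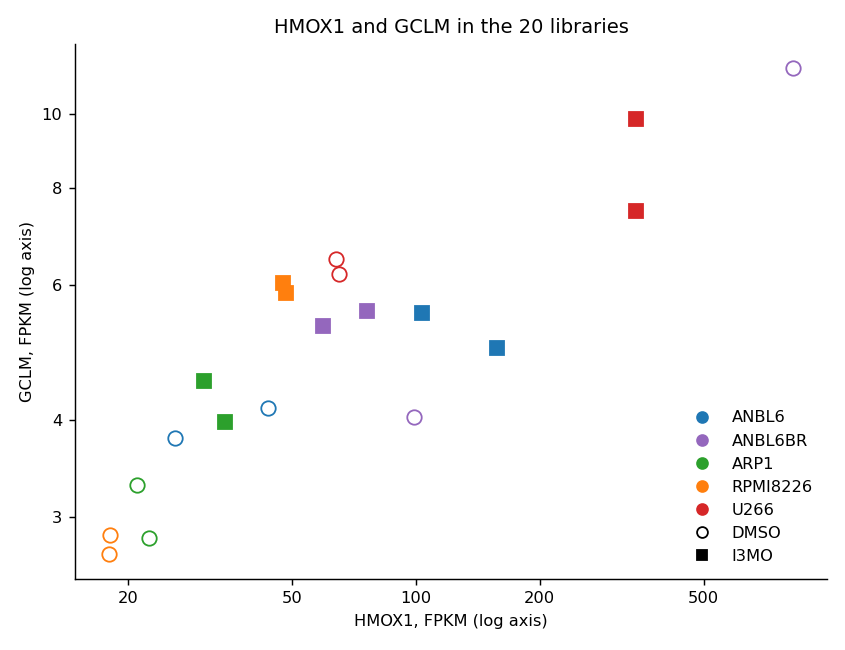
HMOX1 (x axis) against GCLM (y axis), both in FPKM on log scales, with each of the 20 libraries as a point, models in colours, DMSO as open circles and I3MO as squares. In ANBL6, ARP1, RPMI8226 and U266 the squares lie above and to the right of the circles of the same colour, and the point at top right is ANBL6BR DMSO replicate 2 (825 FPKM of HMOX1 and 11.5 of GCLM).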

How the data were processed

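RNA sequencing of total RNA was analysed from 20 libraries of 5 myeloma models, grouped by the labels. The submitters' processing notes name Trimmomatic (versions 0.32 and 0.36), STAR and SAMtools as the authors' tools and hg38 as the build. The counting tool and annotation are not given in the sources used here. The deposited values are FPKM, and 20 tables of single libraries equalled the joint table. Symbols and positions came from GENCODE 29, matched by identifier without version. Fragments recovered from the steps between FPKM values showed that the gene length in use adds up the exons of every transcript, 1.0 (SRXN1) to 7.15 (TXNRD1) times the merged exons, so FPKM compare libraries better than genes. Here limma 3.58.1 (R 4.3.3) was fitted to log2(FPKM + 1), using group means, an intensity trend and Benjamini-Hochberg adjustment over 15687 genes, two-sided. Members and lists were chosen with earlier results of these data known. All 10 members were named, and up to 3 genes of each list; a few further genes that the rule names are not reported here. Alternatives were another pseudocount, no filter, scaling, 16 libraries, a replicate block and leaving out each library. Tested on simulated data for ARP1, the fit over all 15687 genes called 133 of 189 changed genes and, beside these, 33 unchanged genes. Among 5465 genes with a mean of at least 1 FPKM in every group it called 74 of 79 and 2 unchanged genes. Unchanged genes were thus a larger share of the calls than the adjusted p threshold allows over all genes, but not among the 5465. SRXN1 and NQO1 do not belong to the 5465, and the adjusted p of genes outside that set may be too small.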

Additional observations from a re-analysis of the deposited data

Results flagged for a closer look

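The responses of 3 genes were singled out because they differed between models given the same I3MO dose, 10 µM, by a test of the difference itself. The FTH1 response differed among ARP1, RPMI8226 and U266 (limma F test, adjusted p = 0.00668), with log2 differences of -0.19, 1.32 and 0.92. The NQO1 response differed (limma F test, adjusted p = 0.000932), with 0.27, 0.77 and -0.19. The SLC48A1 response differed (limma F test, adjusted p = 0.00197), with 0.13, 0.70 and -0.12. A difference of this kind was called for 38.9% of all genes tested. All groups held 2 libraries, too few to look for a library that stands apart within a group.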

How the results depend on the processing

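Without the 4 ANBL6BR libraries the members called were 4 in ANBL6, 6 in ARP1, 5 in RPMI8226, 4 in U266 and 7 for differing responses, against 1, 0, 3, 2 and 3 with 20 libraries. With 16 libraries and scaling on genes above 0 in every library, chosen after seeing the data, they were 4, 1, 5, 2 and 7. Over all genes that setting called 1158, 6216, 2736, 3965 and 6577 of 15687. Leaving out 1 library at a time gave 0 to 1 members in U266 and 6 to 8 for DMSO levels, and the other counts of members did not move; a library left alone in its group was assumed to vary like the other groups. With a pseudocount of 0.25, or the added scaling of 20 libraries, 4 members were called in RPMI8226, beside 2370 and 2536 of all 15687 genes. Signs turned for SRXN1 in ARP1 (-0.0043 with median-ratio scaling on genes of at least 1 FPKM in every library, -0.0577 with the added scaling, with 20 as with 16 libraries, and -0.0067 to 0.0155 when 1 library was left out), and for SLC48A1 in ARP1 (-0.0686 with the added scaling and -0.008 to 0.2689 leaving out 1 library). Leaving out 1 library, they also turned for SQSTM1 in ANBL6 (-0.0904 to 0.2491), and for FTL and GCLC in RPMI8226 (-0.4152 to 0.0138 and -0.0049 to 0.1881). None of these 5 was called, and the cause was not tested. Replicate numbers do not pair the libraries (correlation of the replicate differences of DMSO and I3MO over genes, from -0.113 in ARP1 to 0.034 in ANBL6BR). With a replicate block the members called were 1, 0, 3, 2, 3 and 8, as without it, and with the ARP1 numbers crossed, added after seeing the data, 0 in ARP1. Over all genes the block took the calls in ANBL6 from 1250 to 456 and in RPMI8226 from 2323 to 1541. Leaving out ANBL6 libraries gave 355 to 1287 calls, ARP1 libraries 3509 to 5159 against 5801, RPMI8226 libraries 1144 to 1427, U266 libraries 2869 to 4133 against 4117, and no filter gave 4181 in ANBL6. Differing responses were called for 4038 to 6950 genes without 1 library and 4064 with the block, against 6101. SRXN1 (down to 11 fragments a library) and NQO1 in ANBL6BR (down to 18) are limited by depth.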

Other observations

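Genes that correlated best with HMOX1 over the 16 libraries did not all follow it in ANBL6BR, as values with no test. DDIT3, which encodes the stress factor CHOP, went from 2.51 ± 0.20 to 7.35 ± 0.0867 FPKM in U266 and from 2.60 ± 0.259 to 7.24 ± 3.63 in ANBL6BR (SD, n = 2). TAF12, a subunit of the general transcription factor TFIID, went from 8.55 ± 1.32 to 14.8 ± 0.61 FPKM in U266 and from 9.57 ± 1.43 to 13.6 ± 0.87 in ANBL6BR. In ANBL6BR both of these means were higher with I3MO, where HMOX1 was lower with I3MO than in either DMSO library.

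The summed level of 16 listed FTL pseudogenes was 6.81 and 22.1 FPKM in the ANBL6BR DMSO libraries and 6.19 to 7.60 with I3MO, and that of the 25 FTH1 pseudogenes was 1.95 and 3.92 with DMSO and 1.61 to 1.93 with I3MO.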
